A study of Homo sapiens with 3 samples.

Results

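The genes described here make nucleotides and supply the serine and one-carbon units that go into them. They were 36 of the 20163 protein-coding genes of the annotation and were chosen by name, from the enzymes of purine and pyrimidine synthesis, salvage, deoxynucleotide supply, folate one-carbon transfer and serine synthesis. All 36 symbols were found in the annotation. Binding of MAX and of BMAL1 was read from lists of peaks made by chromatin immunoprecipitation and sequencing (ChIP-seq), and a peak was assigned to a gene when its summit lay within 1 kb of any transcription start site (TSS) of that gene. Positions are on hg19.

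The chromatin came from cultures of MDA-MB-231, an established human line of triple-negative breast cancer, grown as adherent cells and cross-linked with 1% formaldehyde for 10 min. Portions were precipitated with 4 µg of antibody against BMAL1 or against MAX, and input chromatin served as the control for both. Each antibody had 1 library, and the input 1 as well. No value below has a replicate check, and no gene was tested. The lists held 13650 MAX peaks from 11545865 tags and 756 BMAL1 peaks from 13866783 tags, so that a missing peak means only that none passed the authors' cutoff at this depth.

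De novo purine synthesis builds the ring stepwise on phosphoribosyl pyrophosphate (PRPP) until inosine monophosphate (IMP) is formed, whereas the pyrimidine ring is made first and joined to PRPP later. Serine gives carbon units to tetrahydrofolate, and these units are used for the purine ring and for thymidylate. MAX is the obligatory partner of MYC, and many enzymes of nucleotide synthesis are known MYC targets. MAX also pairs with other proteins, and the antibody does not tell which partner was present. BMAL1 is the core activator of the circadian clock and works as a dimer with CLOCK. Both dimers bind the E-box CACGTG.

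The sequences that carry the results are the E-boxes inside the 6 distinct BMAL1 peaks of these genes, each of which overlapped a MAX peak. They are printed as 30 bases of the plus strand of hg19, from 5′ to 3′, with the palindromic CACGTG in capitals and 12 bases on either side. The fold enrichment (FE) quoted with each site is the pileup of extended fragments at the peak summit divided by the background. The background is the local level of the input or, where that is lower, a genome-wide value.

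In the peak of MTHFD1L, which had the highest FE of these genes for both antibodies, there was 1 E-box.
MTHFD1L chr6:151187456-151187485: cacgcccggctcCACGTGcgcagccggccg
The other BMAL1 peaks each held a pair of E-boxes, listed here from the closest pair to the most distant.
CAD chr2:27440307-27440336: cgcgccgttagcCACGTGgaccgactccgg
CAD chr2:27440336-27440365: gcgcgccgtcctCACGTGgttccagtggag
PPAT and PAICS chr4:57302545-57302574: tgagctcgcggcCACGTGcgagccgcgaaa
PPAT and PAICS chr4:57302613-57302642: cgcgcgggcgcaCACGTGgcccaggcgctc
ATIC chr2:216176724-216176753: gggccggcgggcCACGTGataagcccggaa
ATIC chr2:216176799-216176828: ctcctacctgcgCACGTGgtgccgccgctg
SHMT2 chr12:57623685-57623714: ggcttttccatgCACGTGgattggggcctc
SHMT2 chr12:57623819-57623848: gaccgcccatttCACGTGgcattaggggag
ADSL chr22:40742756-40742785: ggcccgccccagCACGTGccgggctctgtt
ADSL chr22:40742899-40742928: cacctgttgcctCACGTGttctcagtccga
The spacers between the boxes were 23 bp at CAD, 62 bp at PPAT and PAICS, 69 bp at ATIC, 128 bp at SHMT2 and 137 bp at ADSL.

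For comparison, these are E-boxes close to the summit of strong MAX peaks that overlapped no BMAL1 peak. Only the box nearest the summit is printed. The peak of NME1 and the first of PPAT and PAICS also held a second box, with spacers of 243 and 294 bp.
NME1 chr17:49230942-49230971: agtgctgcgaacCACGTGggtcccgggcgc
PPAT and PAICS, first peak chr4:57301646-57301675: cgccgccgaaagCACGTGgaaggacctgcc
MTHFD1 chr14:64855044-64855073: ccagtccctaagCACGTGggttgggttgtc
All sequences were chosen as matches to CACGTG, so only the bases around the hexamer can differ between them.

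MAX was listed at 28 of the 36 genes (77.8%), whereas it was listed at 36.3% of all protein-coding genes. BMAL1 was listed at 7 of the 36 (19.4%), against 1.84% of all protein-coding genes. All 7 genes also had a MAX peak, as did 355 of the 372 protein-coding genes with BMAL1, and 1.76% of protein-coding genes had both. At 8 genes (22.2%) there was more than 1 MAX peak within 1 kb of a TSS, against 5.94% of protein-coding genes. MAX was found at all 5 folate one-carbon genes and all 3 serine genes, at 7 of 9 genes of the purine route and its GMP branch, at 4 of 5 pyrimidine genes, at 5 of 7 genes of deoxynucleotide supply and at 4 of 7 genes of PRPP supply, salvage and phosphorylation. BMAL1 was found at 4 purine, 2 one-carbon and 1 pyrimidine gene, and at 0 genes of the other groups. The groups are small, and their shares were not compared by a test.

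**Figure D1:**
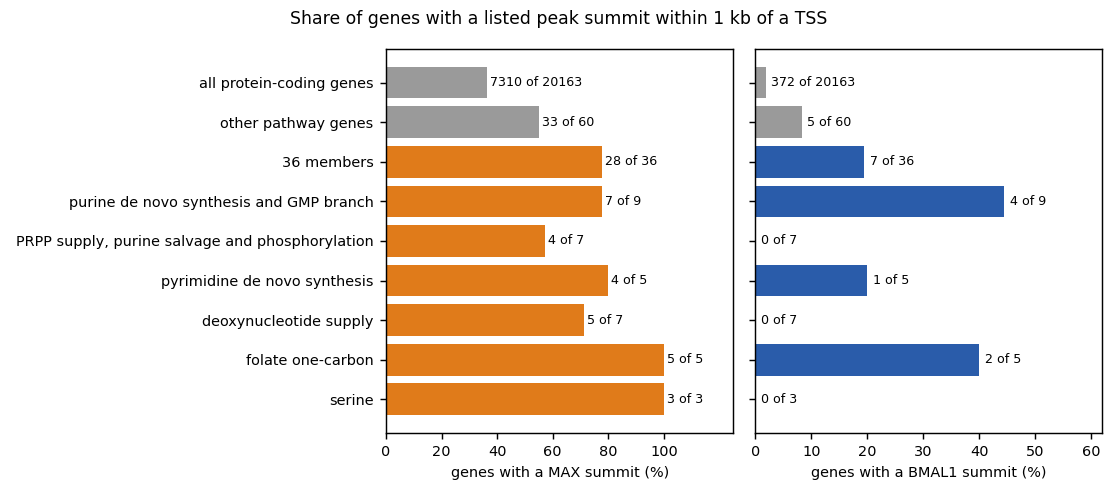
Share of genes (horizontal axis, %) with a MAX summit (left) or a BMAL1 summit (right) within 1 kb of a TSS, for all protein-coding genes and other pathway genes (grey) and for the 36 genes and their groups (coloured). MAX was listed at 77.8% of the 36 genes and 36.3% of all protein-coding genes, and BMAL1 at 19.4% and 1.84%.

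Properties of the promoters moved with these shares. CACGTG lay within 1 kb of a TSS of 31 of the 36 genes (86.1%) and of 51.5% of protein-coding genes. A CpG ratio (observed over expected) of at least 0.6 in about 1 kb around the canonical TSS was found for 35 of the 36 (97.2%) and for 65.8% of protein-coding genes. Among protein-coding genes with both properties, 53.9% had a MAX peak and 4.10% a BMAL1 peak, and among the 31 members with both, 24 (77.4%) and 7 (22.6%). The shares also differed with the number of annotated TSSs, and each TSS adds a window to be searched. The members had a median of 10.5 TSSs, against 5 for all protein-coding genes. The median sequence searched for CACGTG was 6471 bp for the members and 4584 bp for all protein-coding genes. Genes with 10 or more TSSs had CACGTG more often than those with 1 to 3 (73.8% against 31.6%) and a higher median CpG ratio (0.776 against 0.553). MAX was listed at 19.6% of protein-coding genes with 1 to 3 TSSs and at 52.7% of those with 10 or more. For the members these figures were 1 of 3 and 19 of 21 (90.5%). The part of CpG content, E-boxes and TSS number in the difference from other genes was not tested.

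Among the members, the share with MAX differed with the distance of the E-box from a TSS. Of 16 members with CACGTG within 100 bp of a TSS, 15 (93.8%) had a MAX peak and 6 a BMAL1 peak. Box and peak were each taken over any TSS of the gene and need not coincide. The MAX peaks of MTHFD2 and IMPDH2, counted among the 15, held no CACGTG. Of 15 members whose nearest box lay farther out but within 1 kb, 9 (60.0%) had a MAX peak and 1 had BMAL1. For protein-coding genes at these distances the MAX shares were 51.9% and 41.0%, and the BMAL1 shares 6.11% and 2.12%. Of the 5 members without a box in the window, 4 had a MAX peak and 0 had a BMAL1 peak, where 27.5% and 0.194% of protein-coding genes without a box did. The exception among the 16 was IMPDH1, with a box 4 bp from a TSS and no listed peak.

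The purine route held the most BMAL1 peaks. PPAT, the amidotransferase of the committed step, and PAICS, which acts further down the route, are transcribed in opposite directions from canonical TSSs 645 bp apart, and they shared 2 MAX peaks. The first (chr4:57301025-57302072) had an FE of 24.2 (pileup 31, −log10 p 32.5), with its summit in the 5′ UTR of PPAT, 2 bp from a TSS and 9 bp from an E-box. The second (chr4:57302363-57303022) had an FE of 19.9 (pileup 40, −log10 p 37.9), with its summit in an intron of PAICS, 188 bp downstream of the TSS. Of this pair, only the second was overlapped by a BMAL1 peak (chr4:57302399-57302819), which had an FE of 11.98 (pileup 34, −log10 p 25.4) and a summit 68 bp from that of MAX. So the BMAL1 signal assigned to both genes was on the PAICS side, 765 bp from the nearest PPAT TSS.

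ATIC, which completes IMP, had the strongest MAX peak of the purine group (chr2:216176472-216177082). The FE was 25.4, with a 95% Poisson interval of the pileup of 48 that corresponds to 18.7 to 33.7, and −log10 p was 50.0. Such intervals cover counting error only. The BMAL1 peak there (chr2:216176480-216176943) had an FE of 17.4 (12.2 to 24.0, pileup 37, −log10 p 33.1). The summits were 18 bp apart, the closest of the 6 pairs, and both lay upstream of the canonical TSS in a UTR of another transcript, at 31 and 49 bp. The nearer box lay 3 bp from where BMAL1 peaked and 10 bp from where MAX peaked.

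ADSL, the lyase used both on the way to IMP and in making AMP, had a MAX peak in its first kilobase (chr22:40741958-40743134) with an FE of 20.3 (13.9 to 28.7, pileup 32, −log10 p 31.1). The BMAL1 peak (chr22:40742582-40742962) was the weakest of the 6, with an FE of 6.76 (3.86 to 11.0, pileup 16, −log10 p 9.16). Both summits fell in an intron, at 277 bp and 202 bp downstream of a TSS, and a TSS of the unnamed gene ENSG00000284431 lay within 1 kb as well. By FE, ADSL was thus high among all MAX peaks of these genes and lowest among the 6 BMAL1 peaks. Its MAX interval overlapped those of all other MAX peaks with BMAL1. Its BMAL1 interval overlapped those of CAD and PPAT/PAICS. A different place for the antibodies is therefore not resolved by the counts.

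The other purine genes had weaker MAX peaks and no BMAL1 peak. PFAS, which adds nitrogen from glutamine, had an FE of 11.99 from a pileup of 51, with an E-box at the summit itself. The pileup was close to the highest of these genes, and the local background of 4.25 was the highest. GART, which carries several steps of the route, had 2 weak peaks of FE 8.08 and 6.98, and the stronger was also within 1 kb of a TSS of its divergent neighbour SON. IMPDH2, which opens the GMP branch, had an FE of 9.07, with its summit 9 bp from a TSS. No MAX peak was assigned to its paralog IMPDH1 or to GMPS, which makes GMP from xanthosine monophosphate.

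Among genes of PRPP supply, salvage and phosphorylation, NME1 stood highest. It encodes a nucleoside diphosphate kinase, and its MAX peak (chr17:49230647-49231463) had an FE of 23.6 (17.7 to 30.9) and a −log10 p of 53.3. The pileup of 53 was the highest of the 36 genes, the summit lay in the 5′ UTR 6 bp from a TSS, and a box was 5 bp away. The peak is also at the start of the NME1-NME2 readthrough gene, while the nearest TSS of NME2 itself was 11832 bp from it and had no peak. APRT, which salvages adenine, had an FE of 17.3 and an intronic summit, 405 bp from a TSS and 12 bp from a box. GUK1, the guanylate kinase, had peaks of FE 12.3 and 7.62, and PRPS1, which makes PRPP, had peaks of FE 9.52 and 7.79. No peak was assigned to PRPS2 or to HPRT1, the salvage enzyme for hypoxanthine and guanine.

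CAD carries the first steps of pyrimidine synthesis on a single polypeptide and had the second highest MAX enrichment of the 36 genes. Its MAX peak (chr2:27440015-27440623) had an FE of 29.6 (21.0 to 40.7, pileup 38, −log10 p 42.6), with the summit in the 5′ UTR 22 bp from a TSS. The BMAL1 peak (chr2:27440180-27440479) had an FE of 9.09 (4.97 to 15.3, pileup 14, −log10 p 9.93). The BMAL1 summit was 1 bp from the first of the boxes and 23 bp from the second. At this gene the MAX peak was among the strongest by FE and the BMAL1 peak among the weakest. The BMAL1 interval overlapped those of ADSL, PPAT/PAICS, SHMT2 and ATIC, though not that of MTHFD1L. Its order among those it overlapped is not resolved by the counts.

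DHODH, the mitochondrial enzyme that makes orotate, had a MAX peak of FE 16.2 with 2 boxes, neither of them within 100 bp of the summit. The CTP synthases CTPS1 and CTPS2 had MAX peaks of FE 8.57 and 12.5 without an E-box. UMPS, which turns orotate into UMP, had none.

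In deoxynucleotide supply, RRM2 encodes the small subunit of ribonucleotide reductase and had the peak of highest FE (chr2:10260319-10261119). Its FE was 20.3 (13.2 to 29.7, pileup 26, −log10 p 25.6), with no CACGTG in the 200 bp around the summit and 1 box 271 bp away. The summit was 62 bp upstream of an alternative TSS, and 2103 bp upstream of the canonical one. RRM1, the large subunit, had an FE of 9.31. RRM2B, the alternative small subunit, had 3 separate peaks of FE 12.2, 10.2 and 7.62. TK1, the cytosolic thymidine kinase, had an FE of 12.7 at a promoter shared with AFMID. The pileup was 25 at TK1 and at the RRM2B peak of FE 12.2, close to that of RRM2. The backgrounds were 1.97 at TK1, 2.06 at that RRM2B peak and 1.28 at RRM2. The MAX peak of DCK, which phosphorylates deoxycytidine, was at the low end with an FE of 7.16, although its summit was 1 bp from a TSS and 24 bp from a box. TYMS, the thymidylate synthase, and DUT, which removes dUTP, had no peak.

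All folate one-carbon genes had a MAX peak. The strongest was at MTHFD1L, the mitochondrial formate-producing enzyme (chr6:151187206-151187751). The FE was 33.5 (24.6 to 44.8, pileup 46, −log10 p 53.6), higher than 99.7% of all listed MAX peaks. The summit lay in an intron of the canonical transcript, 635 bp from its TSS and 4 bp from that of another transcript, in the E-box itself. The BMAL1 peak (chr6:151187220-151187719) had the same pileup of 46 and an FE of 27.9 (20.5 to 37.3, −log10 p 49.9). It was higher than 93.9% of all listed BMAL1 peaks, and its interval did not overlap those of CAD, ADSL or PPAT/PAICS. A further MAX peak at an internal TSS of MTHFD1L was weak, with an FE of 7.47.

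SHMT2, the mitochondrial hydroxymethyltransferase that splits serine, took a different place by FE for MAX than for BMAL1. Its MAX peak (chr12:57623642-57624052) had an FE of 13.2 (7.72 to 21.2, pileup 17, −log10 p 14.4), the lowest among MAX peaks with BMAL1. Its BMAL1 peak (chr12:57623588-57624052) had an FE of 17.5 (11.5 to 25.5, pileup 27, −log10 p 24.9), the second highest of the 6. The summits, both in an intron of the canonical transcript, were 87 bp apart, the widest gap of the 6, and the box between them lay 64 bp before the MAX summit and 18 bp past the BMAL1 summit. The intervals of ATIC, SHMT2 and PPAT/PAICS for BMAL1 overlapped, so their order is not resolved by the counts. For MAX, the interval of SHMT2 overlapped those of ADSL, PPAT/PAICS, ATIC and CAD, though not that of MTHFD1L. Its place as the lowest is therefore not resolved, nor is a different order between the antibodies.

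MTHFD1, the cytosolic one-carbon enzyme, had a broad MAX peak (chr14:64854250-64855520) with a pileup of 52 and an FE of 17.6 (13.1 to 23.1, −log10 p 45.9). Its summit lay in the 5′ UTR, 4 bp from a TSS and 30 bp from a box. SHMT1, the cytosolic counterpart of SHMT2, had an FE of 11.7 with a box 71 bp from the summit. MTHFD2, the mitochondrial dehydrogenase, had an FE of 11.6 with a summit in an intron, 580 bp from a TSS and without a box, although CACGTG overlapped a TSS of the gene. No BMAL1 peak was assigned to these genes.

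In serine synthesis, PSAT1, the aminotransferase, had a MAX peak of FE 24.7 (17.5 to 33.9, pileup 38, −log10 p 39.7), which was the longest of the 36 genes at 1657 bp (chr9:80911147-80912803). The summit was in the 5′ UTR 46 bp from a TSS, and the only CACGTG of the peak lay 663 bp away. PSPH, the phosphatase that releases serine, had a peak of FE 14.8 at the promoter shared with CCT6A, and another of FE 8.57. PHGDH, the dehydrogenase that opens the route, was assigned a peak of FE 9.03 only through a distal TSS. That summit lay 63438 bp upstream of the canonical TSS and also within 1 kb of a TSS of ZNF697. BMAL1 was not listed at any of the 3 genes.

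**Figure D2:**
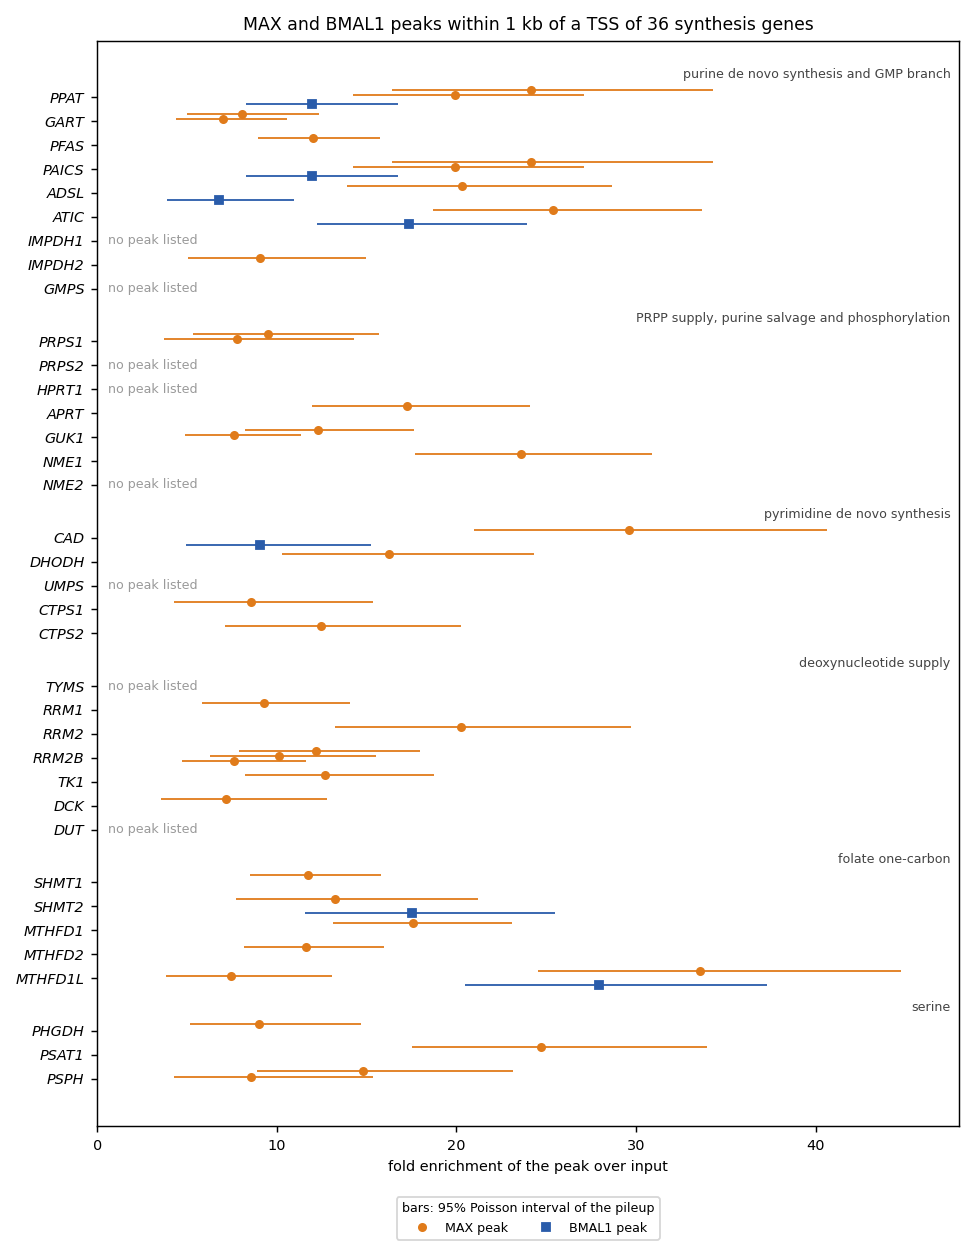
Fold enrichment over input (horizontal axis) of each MAX peak (orange circles) and BMAL1 peak (blue squares) within 1 kb of a TSS of the 36 genes, by group. Bars are 95% Poisson intervals of the pileup, from 1 library for each antibody. MAX values run from 6.98 at GART to 33.5 at MTHFD1L, and the 7 genes with BMAL1 lie in the purine, pyrimidine and one-carbon groups.

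The 28 genes had 35 distinct MAX peaks, with a median FE of 12.2 (6.98 to 33.5) and a median pileup of 24 (10 to 53). Over all 7285 MAX peaks within 1 kb of a protein-coding TSS the medians were 10.2 and 18. Of the 35 peaks, 12 (34.3%) had an FE of at least 15.9, the level that 10.0% of the whole MAX list reached, against 13.2% of promoter peaks. The lowest values were 6.98 at GART, 7.16 at DCK, 7.47 at MTHFD1L and 7.62 at both GUK1 and RRM2B, so the group covered the range from weak to strong. Of the 35 summits, 24 lay within 100 bp of a TSS of a member, and the median distance was 56 bp. Only summits within 1 kb were taken, and the distance is to the nearest of all annotated TSSs. These distances were not counted for the other promoter peaks, so no difference from them is claimed.

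**Figure D3:**
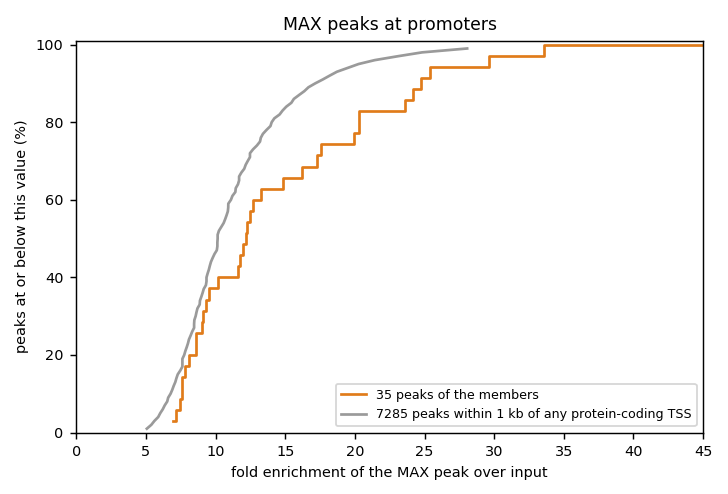
Cumulative share of MAX peaks (vertical axis, %) at or below each fold enrichment over input (horizontal axis), for the 35 peaks of the members (orange) and the 7285 peaks within 1 kb of any protein-coding TSS (grey, percentiles 1 to 99). The medians are 12.2 and 10.2, and the line of the members lies to the right.

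Peaks with an E-box at the summit had higher enrichment. CACGTG was present in the 200 bp around the summit at 14 of 35 MAX peaks (40.0%, Wilson 95% interval 25.6 to 56.4), against 20.5% of MAX peaks at protein-coding promoters and 1.43% of windows of the same length 2 kb to either side of the member summits. The median FE was 18.8 with the box and 9.52 without it, against 12.5 and 9.76 for promoter peaks. Of the 10 strongest peaks 8 had a box at the summit, and of the other 25 only 6. The exceptions among the strongest were PSAT1 and RRM2. The variant E-box CACGCG, read on either strand, was found at 5 peaks (14.3%), against 18.7% of promoter peaks. More than 1 CACGTG inside the peak was found for 22.9% of the 35 peaks and 5.09% of promoter peaks. A match describes the sequence and not an occupied site.

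**Figure D4:**
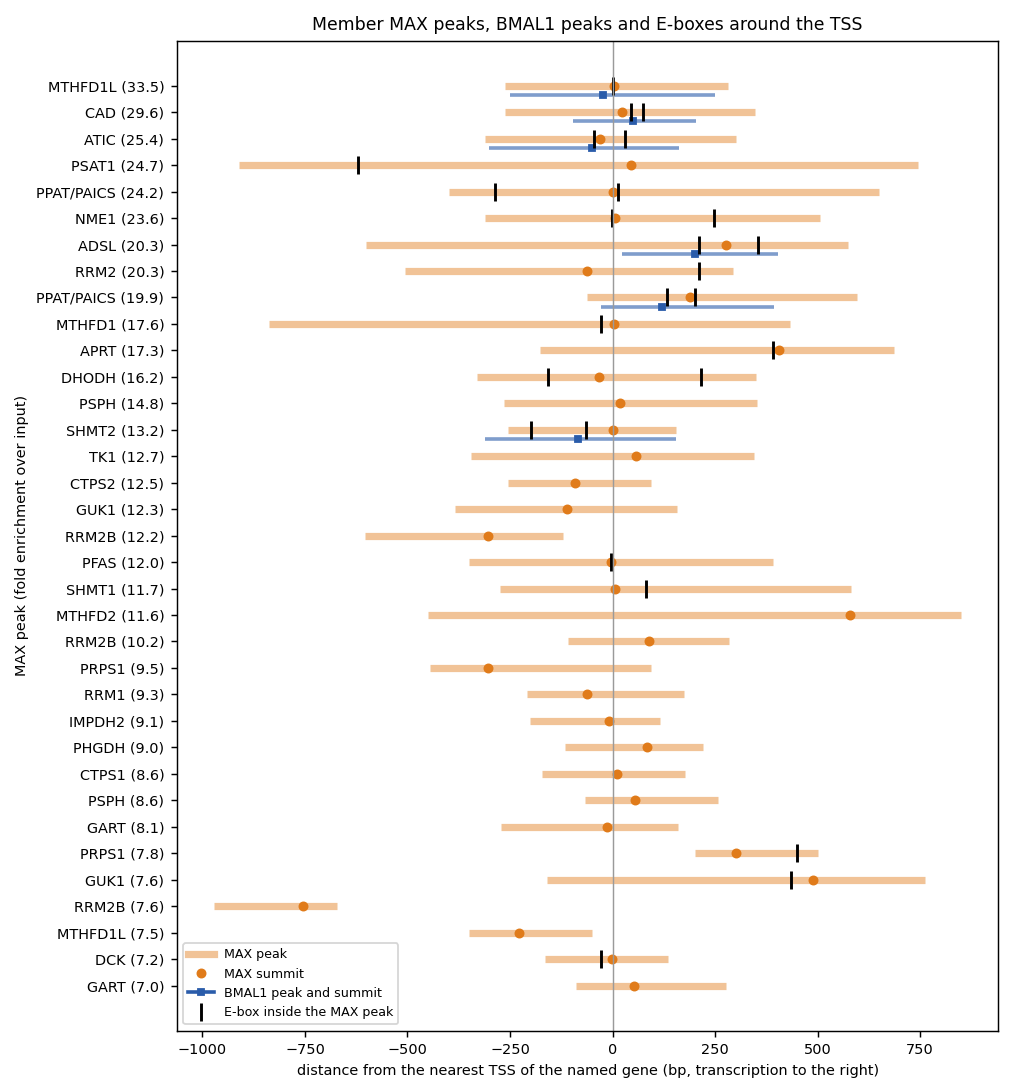
Extent and summit of each MAX peak (orange), overlapping BMAL1 peaks (blue) and E-boxes inside the MAX peak (black ticks), by distance from the nearest TSS of the gene in bp with transcription to the right. The first PPAT/PAICS peak is drawn from the PPAT TSS and the other from the PAICS TSS. Peaks are ordered by fold enrichment, in parentheses, and of the 10 strongest 8 have a box within 100 bp of the summit.

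MAX peaks that overlapped a BMAL1 peak were the stronger ones among these genes. Their median FE was 22.8 (6 peaks, 13.2 to 33.5), against 11.6 (29 peaks, 6.98 to 24.7) for those without BMAL1, and the ranges overlapped. At protein-coding promoters the corresponding medians were 16.2 and 10.1. Of the 35 MAX peaks 17.1% overlapped BMAL1, against 4.06% of MAX peaks at protein-coding promoters. All 6 BMAL1 peaks had CACGTG at the summit, at 1 to 22 bp, compared with 78.5% of BMAL1 peaks at protein-coding promoters. In 5 of the 6 (83.3%) the peak held 2 boxes, against 32.5% with more than 1 at promoters. Pairs of boxes were not particular to peaks with BMAL1. The MAX peaks of NME1, DHODH and the first of PPAT and PAICS held 2 boxes and overlapped no BMAL1 peak. A box was not sufficient for a listed BMAL1 peak, since 8 MAX peaks of these genes had CACGTG at the summit and no BMAL1. These were the first peak of PPAT and PAICS, NME1, MTHFD1, APRT, PFAS, SHMT1, GUK1 and DCK.

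For the 8 genes without a MAX peak, no summit was listed within 10 kb of a TSS either. The nearest MAX summit was 11832 bp away for NME2 (FE 23.6, the NME1 peak), 16002 bp for GMPS (FE 14.7) and 26783 bp for PRPS2 (FE 10.1). It was 44102 bp away for TYMS (FE 7.62), 45761 bp for IMPDH1 (FE 24.6), 63490 bp for HPRT1 (FE 10.0), 74331 bp for UMPS (FE 8.88) and 469958 bp for DUT (FE 10.8). Their promoters were not poor in CpG, with a median CpG ratio of 0.827 against 0.801 for the genes with MAX, and 7 of the 8 had CACGTG within 1 kb. The box was within 100 bp in only 1 of them, and the median number of TSSs was 5.5 against 11.5.

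The remaining genes of these pathways were taken as a list of 60, including kinases, nucleosidases, folate carriers and the glycine cleavage system. MAX was listed at 33 of them (55.0%) and BMAL1 at 5 (8.33%), which lay between the 36 genes and all protein-coding genes. The strongest BMAL1 peak was at PNP, the purine nucleoside phosphorylase, with an FE of 31.3 and a pileup of 72, above that of MTHFD1L, and its MAX peak had an FE of 21.5. That peak was also within 1 kb of a TSS of PIP4P1. BMAL1 was also listed at UCKL1, a uridine-cytidine kinase-like gene (FE 8.72), at the AMP deaminase AMPD3 (FE 7.98) and at the adenosine kinase ADK (FE 6.71). High MAX values were 21.5 at PNP, 21.3 at NME6, 19.7 at AMPD3 and 18.4 at the thymidylate kinase DTYMK. The BMAL1 peaks of PNP, AMPD3 and ADK were assigned only through alternative TSSs. Their summits lay 7635, 147712 and 25428 bp from the canonical TSS. The MAX summits quoted for PNP and AMPD3 lay 7716 and 147724 bp from it. The shares of the 60 genes were not counted with the canonical TSS alone. There were 27 genes without a MAX peak, among them AK1, AK3, AK4, AK6, ADA and MTAP.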

How the data were processed

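The authors aligned the single reads to hg19 with BWA 0.6.2 and called peaks for each antibody against the same input with MACS2 2.0.9. The deposited pileup is a signal, the height of fragments extended to 300 bp at the summit, not scaled by depth. The deposited fold enrichment divides it by the background, as a ratio. The background is the local input level or, where that is lower, a genome-wide value. The lowest background was this genome-wide value, 1.28 for MAX and 1.54 for BMAL1. It applied to 9 of the 35 member MAX peaks, among them CAD, the first of PPAT and PAICS, RRM2 and SHMT2. It also applied to the BMAL1 peaks of CAD and SHMT2. At these peaks the FE is the pileup over a constant. The deposited −log10 p-value is that of the peak caller. At most 1 tag per position was kept for MAX and 2 for BMAL1, which limits the pileup, and 29308882 input tags were used. The file headers give a p cutoff of 1e-05 and the study's methods a stricter one. All listed peaks were used.

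TSSs were those of all transcripts in GENCODE release 44 mapped to GRCh37, which hg19 names. Values of peaks carry 95% Poisson intervals of the pileup, divided by the background, and shares of peaks a Wilson interval. E-boxes were counted in 200 bp around the summit and in windows 2 kb to either side. Overlap meant at least 1 bp. With 1 library for each antibody no test was possible. Fold enrichments of the antibodies come from different depths and tag limits, so they were ordered within an antibody and only set side by side between them. All 36 genes were named, with full values for those with a BMAL1 peak and for the 10 strongest MAX peaks, and values alone for the 5 weakest. Of the other pathway genes, those with BMAL1, the 5 strongest for MAX and the first 6 without MAX were named, except for items that are not reported here. The genes and lists were chosen with earlier results of these data known. The alternatives were the distance and kind of TSS, the −log10 p of peaks, the window and form of the E-box, and 1 peak per gene. The counting steps were tested on simulated data. Other experiments of the study were not analysed here. Python 3.11.15 was used, with pysam 0.24.0 for sequences, matplotlib 3.10.9 for plots, scipy 1.17.1 for intervals, and pandas 2.3.3 and numpy 2.4.6 for tables.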

Additional observations from a re-analysis of the deposited data

How the results depend on the processing

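The number of the 36 genes with MAX went from 28 to between 23 and 28, and with BMAL1 from 7 to between 5 and 7, over the alternatives. Over the planned ones, MAX was listed at 23.4% to 41.6% of all protein-coding genes and BMAL1 at 1.35% to 2.55%. At 300 bp these shares were 29.0% and 1.35%, and with the canonical TSS alone 31.9% and 1.47%. The value that moved most was the share of protein-coding genes with a MAX peak, 23.4% when only peaks with a −log10 p of at least 12 were counted. At that threshold 5 genes lost MAX (CTPS1, DCK, IMPDH2, PHGDH and PRPS1) and 2 lost BMAL1 (ADSL and CAD). At 300 bp from a TSS, APRT, MTHFD2 and PRPS1 lost MAX and PPAT lost BMAL1. With the canonical TSS alone PHGDH and RRM2 lost MAX. An alternative chosen after seeing the data left out peaks also assigned to a protein-coding gene outside the 36. The NME1-NME2 readthrough gene was exempt from this rule, so the NME1 peak was kept. This alternative gave 25 genes with MAX, without ADSL, PHGDH and TK1, and 6 with BMAL1, without ADSL. It was not counted for all protein-coding genes. The share of the 35 MAX peaks with CACGTG at the summit was 40.0%. It was 28.6% in a window of 100 bp and 45.7% in 400 bp. Counting CACGCG as well gave 48.6%, and counting CACGTT as well gave 42.9%. Over the other alternatives this share lay between 38.2% and 44.4%, and the median FE between 12.2 and 12.7. Such alternatives were not counted for other promoter peaks. No paired analysis was possible because there was 1 library for each antibody. Of the 35 MAX peaks 5 had a −log10 p under 8, and the effect of depth on such weak calls was not tested.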

Other observations

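Between 1 and 10 kb from a TSS, MAX was listed at 8 of the 36 genes and BMAL1 at 0. The share of all protein-coding genes at this distance was not counted, so these counts cannot be called high or low. The FE of these MAX peaks ranged from 5.58 near ADSL to 11.9 in an intron of MTHFD1L. The peak in an intron of CTPS1, 2322 bp from a TSS, had an FE of 11.7 and was the only one with CACGTG in the 200 bp around its summit. It was higher than the promoter peak of the same gene, which had an FE of 8.57 and no box. MTHFD1L had 2 such peaks, of FE 11.9 and 9.67, which lay 4121 and 8905 bp from an internal TSS. Those near IMPDH2, of FE 11.4 and 6.58, were within 1 kb of a TSS of DALRD3, that near ADSL of SGSM3, and that near CTPS2 of SYAP1. None of the distal peaks overlapped a BMAL1 peak.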
